A study of Macaca mulatta with 449 samples.

Results

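The pituitary (PIT) was compared with the hypothalamus (HTHA), the brain sub-region that controls it, in 8 rhesus macaques (Macaca mulatta). The 16 samples were chosen by their sub-region label, 8 PIT and 8 HTHA, 1 of each from every animal, out of a gene count table with 51 sub-regions of each of the 8 animals. All animals were healthy monkeys for which no treatment or genetic change is named, and they are called here by their label number, from Rhesus 2 to Rhesus 11. The 4 young animals were Rhesus 7 and Rhesus 8 (males of 4 and 3.8 years) and Rhesus 4 and Rhesus 10 (females of 3.2 and 5 years). The 4 mid-aged animals were Rhesus 2 and Rhesus 3 (males of 10 years) and Rhesus 6 and Rhesus 11 (females of 10 and 9.8 years). Total RNA from small dissected pieces was depleted of ribosomal RNA and sequenced, so that every value is a mean over all cells of a piece. Neither the labels nor the methods say which lobe of the pituitary or which nuclei of the hypothalamus a piece held.

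The hypothalamus drives the pituitary along a pair of routes. Small neurons release peptides and dopamine into portal blood, which reach the anterior lobe and set how much growth hormone, prolactin, corticotropin, thyrotropin and gonadotropins its epithelial cells secrete. Large neurons instead send axons down to the posterior (neural) lobe, where oxytocin and vasopressin are released among glia called pituicytes. The anterior lobe grows from oral ectoderm, and the hypothalamus and the neural lobe from the floor of the forebrain.

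Depth was similar in both sub-regions, with 8553816 to 13438044 gene counts in a PIT library and 9057534 to 12359990 in an HTHA library. The 10 genes with the most counts took between 11.6% and 35% of a PIT library and between 4.98% and 9.37% of an HTHA library. The Y-linked gene DDX3Y lay between 193 and 422 CPM (gene counts scaled to the same library size) in the 8 libraries of males and at most at 0.365 CPM in the 8 of females, as their labels require. The markers POMC, CGA and OXT followed the sub-region labels in 8 of 8 animals. A few libraries stood apart. The HTHA library of Rhesus 6 held 514 CPM of SLC17A7, the vesicular glutamate transporter of cortical neurons, against 1.05 to 5.65 CPM in the other HTHA libraries. The HTHA libraries of Rhesus 4 and Rhesus 11 held 4.85 and 9.65 CPM of PRL, the prolactin gene, against at most 0.214 CPM in the rest. PIT libraries differed in genes of the neural lobe, as described further on.

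Of 14958 genes tested, 5254 (35.1%) were called, that is, they had an adjusted p under 0.05 (edgeR's quasi-likelihood test with animal as block, Benjamini-Hochberg adjustment over all genes tested) and a log2 fold change (log2FC, PIT over HTHA) above 1 in size. Of these, 2181 (14.6% of genes tested) were higher in PIT and 3073 (20.5%) higher in HTHA. The larger differences leaned further toward HTHA, since 1564 genes exceeded a log2FC of 2 in size on that side and 690 on the PIT side, and beyond 5 the numbers were 299 and 103. For 5088 genes (34%) the 8 values of one sub-region all lay above the 8 of the other. The direction was the same in 8 of 8 animals for 4757 of the called genes. Over all genes tested the median log2FC was 0.02, which is the value to set beside the medians of gene lists below.

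**Figure D1:**
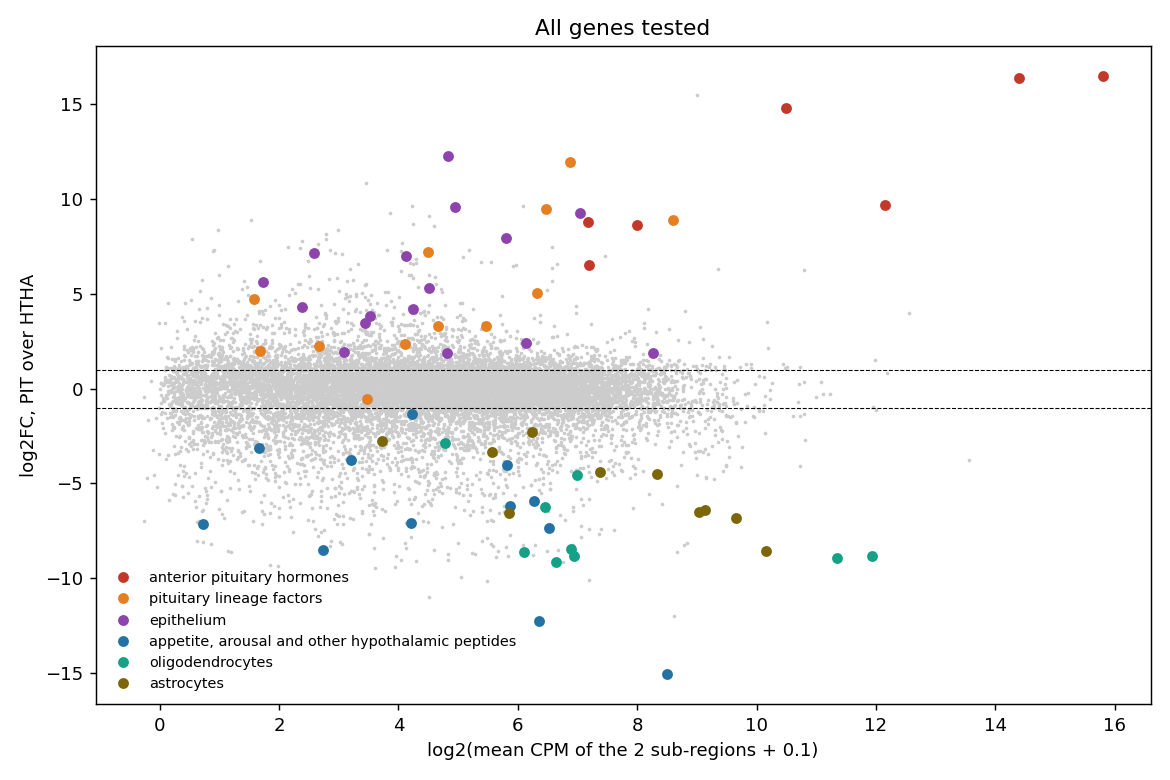
Each point is 1 of 14958 genes tested, at the log2 of its mean CPM over both sub-regions (x axis) and its log2FC, PIT over HTHA (y axis). Coloured points are members of 6 gene lists, and dashed lines mark a log2FC of 1 in either direction. Hormone, lineage factor and epithelial genes lie above 0, apart from 1 lineage factor, ISL1, at −0.54, while peptide, oligodendrocyte and astrocyte genes lie below 0.

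Between these extremes, lists of genes with a known role separated by sub-region. All 7 anterior pituitary hormone genes and all 16 epithelial genes tested were higher in PIT. All 12 pan-neuronal genes, 10 astrocyte genes, 9 oligodendrocyte genes and 12 hypothalamic peptide genes tested were higher in HTHA. Of the general endothelial genes 3 of 10 were called, and of the genes of prohormone processing 7 of 15, shares to be read against the 35.1% of all genes tested.

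**Figure D2:**
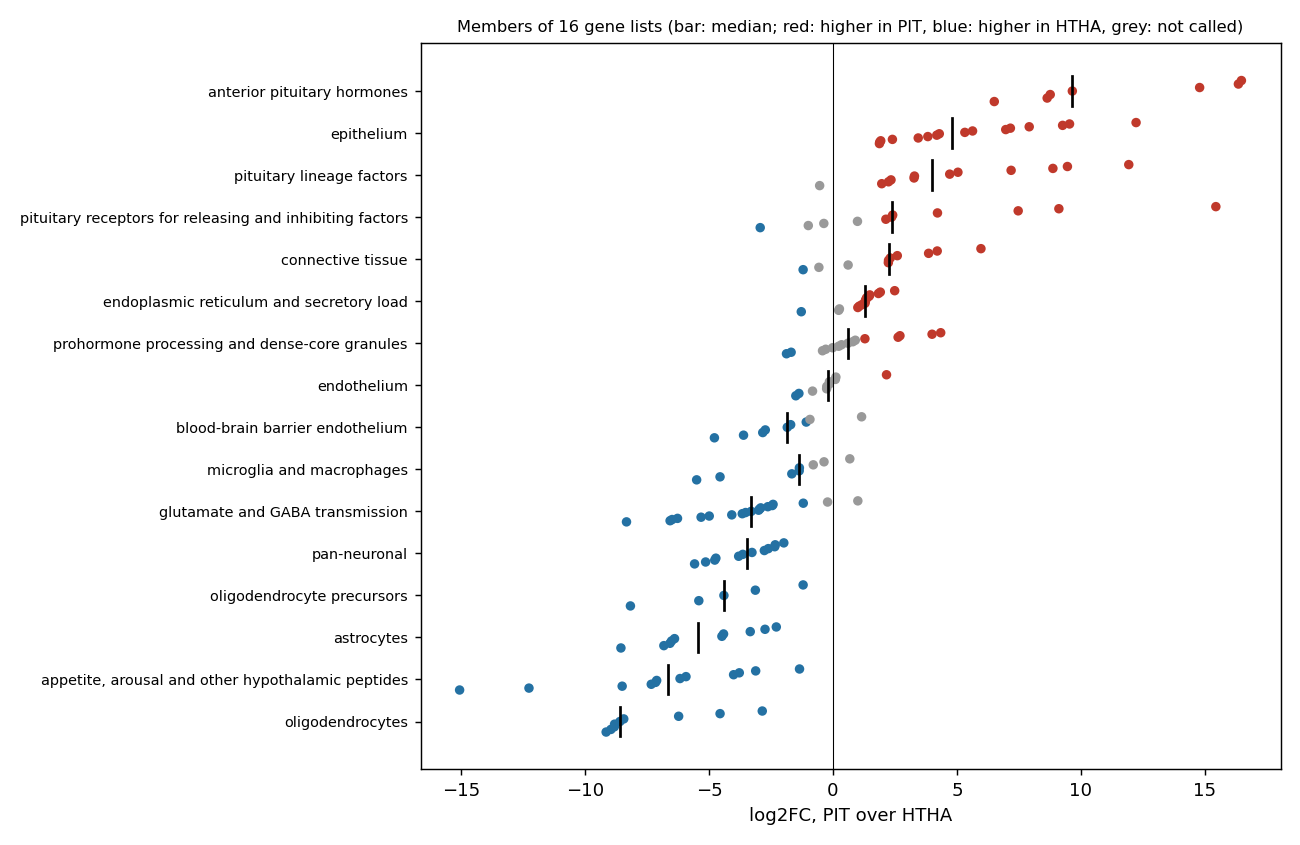
Points are the tested members of 16 gene lists at their log2FC, PIT over HTHA (x axis), red where called higher in PIT, blue where called higher in HTHA and grey where not called, and the black bar is the list's median. Medians run from 9.66 for the anterior pituitary hormones to −8.60 for the oligodendrocyte genes, and 7 of 10 endothelial genes are grey.

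Among the hormone genes of the anterior lobe, PRL and GH1 had the largest log2FC of all genes named here. The others of this list lay below GHRHR and, in size, below PMCH. PRL was counted at 27758 to 384071 CPM in PIT (median 45978) and at 0 to 9.65 CPM in HTHA (median 0.0523), a log2FC of 16.48 ± 1.06 (SE, n = 8 animals) with adjusted p = 9.94e-08. GH1, growth hormone, lay between 3776 and 91264 CPM in PIT (median 39632), and in HTHA it was 0 in 6 libraries, 0.53 CPM in Rhesus 11 and 8.92 CPM in Rhesus 4 (log2FC 16.36 ± 0.98, adjusted p = 5.9e-08). The identifier called GH1 here has that name in the study's supplement and the name GHV in the reference table of symbols. Its reads may be shared with near-identical copies, as GH1 and GHV stand close together in the RefSeq annotation. In both PRL and GH1 every PIT library lay far above every HTHA library. As these are bulk samples, a gene present in fewer cells and a gene with less RNA per cell cannot be told apart here or in any later comparison.

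POMC, the precursor of corticotropin, varied least of the 7 between PIT libraries. It lay between 7514 and 12838 CPM in PIT (median 8451) and between 2.03 and 30.2 CPM in HTHA (median 12.8), where neurons of the arcuate nucleus also make it (log2FC 9.66 ± 0.50, adjusted p = 2e-08). CGA encodes the alpha subunit that thyrotropin and both gonadotropins share. It lay between 923 and 5699 CPM in PIT (median 2645) and between 0 and 0.26 CPM in HTHA, so that the ratio of pooled levels was 32704 with a 95% counting interval of 16598 to 75752 (adjusted p = 1.46e-11). TSHB, the thyrotropin beta subunit, lay between 69.6 and 483 CPM in PIT and between 1.46 and 4.1 CPM in HTHA (log2FC 6.51 ± 0.34, adjusted p = 2.31e-08). The groups did not overlap in any of these 3 genes.

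Among the hormone genes, only the gonadotropin subunit LHB had overlapping groups, although it was higher in PIT in 8 of 8 animals. LHB was counted at 2.92 to 1347 CPM in PIT (median 520) and at 0.0877 to 4.59 CPM in HTHA (log2FC 8.64 ± 0.59, adjusted p = 1.59e-07). FSHB, the other gonadotropin beta subunit, lay between 5.56 and 1414 CPM in PIT (median 56.8) and between 0 and 1.18 CPM in HTHA (log2FC 8.77 ± 0.76, adjusted p = 1.15e-06). Across animals the 7 hormone genes varied more in PIT than genes in general: their median SD of log2(CPM + 1) was 1.49 against 0.330 over all genes tested.

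**Figure D3:**
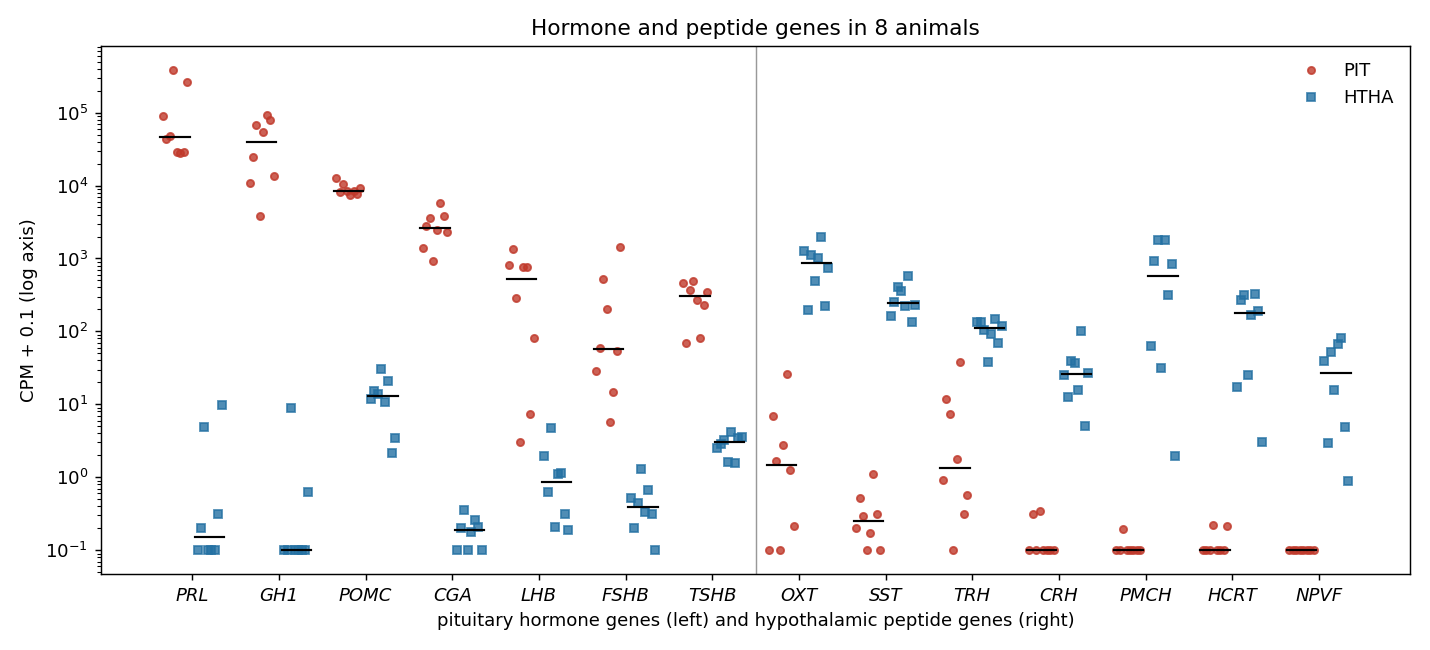
Each point is 1 library at its CPM + 0.1 on a log axis, red circles for PIT and blue squares for HTHA, 8 animals each, and black bars are medians. The 7 pituitary hormone genes on the left are higher in PIT, with LHB overlapping, and the 7 peptide genes on the right are higher in HTHA, with 25.7 CPM the highest PIT value of OXT.

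Together the 7 hormone genes took 15.8% ± 7.81 (SD, n = 8) of the counts of a PIT library, from 8.91% in Rhesus 3 to 31% in Rhesus 6, and at most 0.00355% of an HTHA library. PRL alone took 29.9% in Rhesus 6 and at least 2.81% in every animal, and GH1 took 0.294% to 9.23%. In PIT, GH1 lay at 54436, 91264, 68531 and 79803 CPM in the young animals Rhesus 7, 8, 4 and 10, and at 10705, 24827, 3776 and 13689 CPM in the mid-aged animals Rhesus 2, 3, 6 and 11, so that the age stages did not overlap. PRL was highest in the mid-aged females Rhesus 6 and Rhesus 11, at 384071 and 259422 CPM, and at most 89639 CPM in the others. LHB lay at 820, 1347, 753 and 755 CPM in the males Rhesus 2, 3, 7 and 8, and at 287, 2.92, 7.30 and 81.7 CPM in the females Rhesus 4, 6, 10 and 11, again without overlap. FSHB was lower in most males, at 28.8, 59.8, 5.56 and 14.7 CPM, than in the females at 519, 203, 53.9 and 1414 CPM, and here the sexes overlapped. Because the animals fall into groups of 4 by age stage or sex, no correlation of GH1 with PRL or of LHB with FSHB is given. Counts of LHB are uncertain, since RUVBL2, a gene that overlaps it in the RefSeq annotation, lay at 862, 1323, 757 and 767 CPM in the PIT of the same males and at 315, 24.7, 39.9 and 105 CPM in that of the females.

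**Figure D4:**
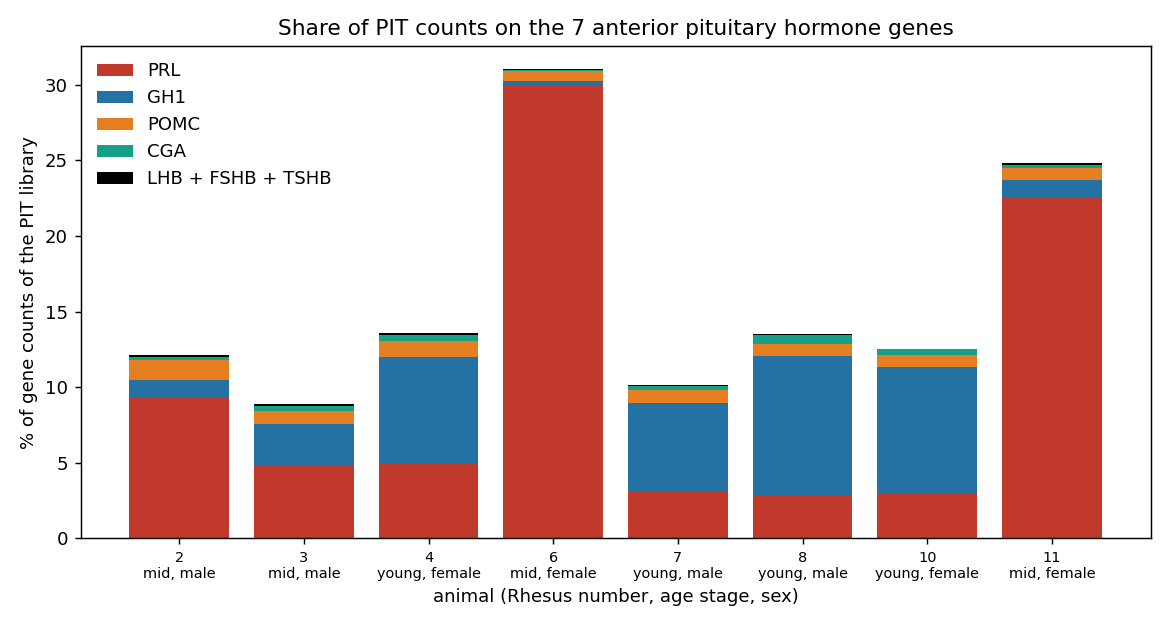
Bars show, for the PIT library of each of the 8 animals, the percentage of all gene counts on the 7 anterior pituitary hormone genes, stacked by gene (y axis from 0). PRL fills most of the bar in the 4 mid-aged animals, Rhesus 2, 3, 6 and 11, and GH1 the larger part in the 4 young animals.

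Transcription factors that specify the cells of the anterior lobe followed the hormones. Of 12 tested, 11 were higher in PIT, none was higher in HTHA, and their median log2FC was 4.00. POU1F1, which drives the growth hormone, prolactin and thyrotropin cells, lay between 536 and 1171 CPM in PIT and between 0.709 and 3.25 CPM in HTHA (log2FC 8.88 ± 0.23, adjusted p = 2.62e-10). LHX3, needed early for the whole anterior lobe, lay between 166 and 399 CPM in PIT against 0 to 0.214 CPM in HTHA, a pooled ratio of 4949 (counting interval 1933 to 18163). NEUROD4 and SIX2 also had few counts in HTHA, with pooled ratios of 712 (466 to 1151) and 147 (101 to 226). None of these 4 genes overlapped between the sub-regions.

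Other lineage factors also had their own level in the hypothalamus. NR5A1, which marks gonadotropin cells in the pituitary and the ventromedial nucleus in the hypothalamus, lay between 24.5 and 65.6 CPM in PIT and between 0.175 and 16.6 CPM in HTHA (log2FC 3.27 ± 0.69, adjusted p = 0.00125). EYA1 had a log2FC of 3.29 ± 0.18 and GATA2, a factor of thyrotropin and gonadotropin cells, of 2.34 ± 0.15, both without overlap. ZBTB20 (1.97 ± 0.35) and NEUROD1 (2.24 ± 0.51) passed with overlapping groups, and NEUROD1 was higher in PIT in 7 of 8 animals, the exception being Rhesus 6 with 17.1 CPM in HTHA. ISL1, used by both tissues, did not pass (log2FC −0.54 ± 0.20), with 6.73 to 11.3 CPM in PIT and 6.12 to 18.1 CPM in HTHA. HESX1 and PAX7 had too few counts to be tested, at most 1.05 CPM in HTHA and 4.97 CPM in PIT respectively.

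Receptors through which the hypothalamus reaches the pituitary were mostly higher in PIT, 7 of 11 tested, with a median log2FC of 2.37. GHRHR, the receptor for growth hormone-releasing hormone, lay between 285 and 1972 CPM in PIT, while all 8 HTHA libraries together held 1 count, a pooled ratio of 94477 with an interval of 16957 to 3731636. GNRHR, for gonadotropin-releasing hormone, lay between 13.8 and 84.2 CPM in PIT and reached 0.26 CPM in HTHA (pooled ratio 663, 305 to 1808). AVPR1B, the vasopressin receptor of corticotropin cells, lay between 101 and 280 CPM in PIT and between 0.107 and 1.81 CPM in HTHA (log2FC 7.47 ± 0.32, adjusted p = 5.61e-09). These receptors of the releasing factors thus had almost no counts in the tissue that makes the factors.

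Receptors with known roles in the brain differed less. DRD2, through which dopamine restrains prolactin, lay between 58.4 and 208 CPM in PIT and between 3.44 and 35.5 CPM in HTHA (log2FC 2.41 ± 0.48, adjusted p = 0.000776). CRHR1, the receptor for corticotropin-releasing hormone (2.37 ± 0.35), and GHSR, the ghrelin receptor (2.14 ± 0.27), passed with overlapping groups. TRHR, for thyrotropin-releasing hormone, was counted at 1.40 to 30.2 CPM in PIT and at 0.732 to 5.36 CPM in HTHA and did not pass (log2FC 0.99 ± 0.53, adjusted p = 0.115). It did pass without the animal block (log2FC 1.63) and without Rhesus 8 (1.34). Its PIT value was 27.6 and 30.2 CPM in Rhesus 6 and Rhesus 11 and at most 7.74 CPM in the others.

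The somatostatin receptors did not move together. SSTR5 was higher in PIT, with 3.90 to 13.1 CPM against 0.0877 to 2.25 CPM in HTHA (log2FC 4.22 ± 0.59, adjusted p = 5.48e-05). SSTR1 was higher in HTHA, with 3.45 to 12.5 CPM against 0.155 to 8.52 CPM in PIT (log2FC −2.93 ± 0.48, adjusted p = 0.000185), and its groups overlapped only through the PIT library of Rhesus 6. SSTR2, at −0.99 ± 0.24, lay just under the fold threshold, and passed in 7 of the alternatives tried, while SSTR3 did not pass (−0.37 ± 0.21, adjusted p = 0.136).

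On the side of the ligands, all 4 releasing and inhibiting factors tested were higher in HTHA (median log2FC −7.06). SST, somatostatin, which inhibits growth hormone, lay between 133 and 574 CPM in HTHA and between 0 and 1.01 CPM in PIT, a pooled ratio of 1091 in favour of HTHA (734 to 1703). CRH, the corticotropin-releasing hormone, lay between 5.02 and 101 CPM in HTHA and at most at 0.244 CPM in PIT (pooled ratio 752, 294 to 2758). TRH lay between 37.6 and 147 CPM in HTHA and between 0 and 37.4 CPM in PIT (log2FC −5.08 ± 0.69, adjusted p = 4.45e-05). The only PIT library near the HTHA range was that of Rhesus 8, and the groups did not overlap. GNRH1 had low counts, 1.99 to 16.5 CPM in HTHA and 0.687 to 3.73 CPM in PIT (log2FC −1.44 ± 0.42, adjusted p = 0.00941).

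The remaining factors of this list did not pass the filter on low counts, which asks for a minimum in 8 libraries, and were not tested. NPVF, a peptide that inhibits gonadotropin release, was at 0 in all 8 PIT libraries and at 0.79 to 80.7 CPM in HTHA, which makes it at least 115-fold higher there when PIT is set to 3 counts per library. GHRH did not exceed 0.305 CPM in PIT and was at 5.43 CPM in the HTHA of Rhesus 8 with a median of 0.289 CPM. KISS1 had 0.0777 CPM in 1 PIT library, 0 in the others, and 0.0877 to 2.76 CPM in HTHA. OXT, oxytocin, lay between 197 and 1975 CPM in HTHA (median 877) and between 0 and 25.7 CPM in PIT (median 1.36), a log2FC of −8.25 ± 0.81 (adjusted p = 3.18e-06). In HTHA it was highest in Rhesus 8 and lowest in Rhesus 3 and Rhesus 10, and every HTHA library lay above every PIT library.

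All 12 of the other hypothalamic peptide genes tested were higher in HTHA, with a median log2FC of −6.64, and 11 of them were without Rhesus 6. PMCH, the melanin-concentrating hormone of the lateral hypothalamus, varied the most between animals, from 1.84 CPM in Rhesus 11 to 1818 CPM in Rhesus 4 (median 579), while 1 PIT library held 0.0981 CPM and the others 0. HCRT (orexin), made by neurons of the same zone, was also lowest in Rhesus 11 at 2.98 CPM and reached 324 CPM in Rhesus 8 (median 181). In Rhesus 2 and Rhesus 6 both were low as well, at 63.9 and 31.4 CPM for PMCH and 17.2 and 25 CPM for HCRT. Both were at most at 0.122 CPM in every PIT library. Opioid and tachykinin precursors were steadier: PENK lay between 78.3 and 290 CPM in HTHA (log2FC −7.33 ± 0.57), PDYN between 63 and 280 CPM (−5.93 ± 0.36), TAC1 between 43.8 and 183 CPM (−4.01 ± 0.40) and TAC3 between 6.94 and 25.4 CPM with at most 0.141 CPM in PIT. NPY, an appetite peptide of the arcuate nucleus, lay between 7.74 and 26.6 CPM in HTHA and between 0 and 3.43 CPM in PIT (−3.78 ± 0.44, adjusted p = 1.21e-05). CCK had the smallest difference (−1.35 ± 0.54, adjusted p = 0.0406).

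Transcription factors of the hypothalamus split by direction, with 9 of 13 tested higher in HTHA and 4 higher in PIT (median log2FC −3.15). OTP and SIM1 specify the neurons that make oxytocin, vasopressin and CRH. OTP lay between 6.34 and 24.7 CPM in HTHA and at most at 0.143 CPM in PIT (pooled ratio 427, 146 to 2071), and SIM1, at 1.26 to 6.24 CPM in HTHA, was at 0 in all PIT libraries, at least 15.2-fold lower there. FOXB1, of the mammillary region, was at least 14.7-fold lower in PIT by the same floor, and DLX1, of GABA neurons, had a pooled ratio of 1054 (292 to 8706). The 4 factors higher in PIT were TBX3 (log2FC 2.37 ± 0.26), LMX1A (2.20 ± 0.76), SIX3 (1.55 ± 0.19) and MEIS2 (1.21 ± 0.20). SIX3 acts in both pituitary and forebrain development and lay between 13.1 and 21 CPM in PIT and between 3.11 and 10.4 CPM in HTHA. TBX3 lay between 8.04 and 83.7 CPM in PIT, highest in Rhesus 8, and between 3.22 and 7.38 CPM in HTHA.

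Receptors through which peripheral hormones feed back showed no common direction: of 11 tested, 2 were higher in PIT, 4 higher in HTHA and 5 not called (median log2FC 0.16). The thyroid hormone receptors went opposite ways. THRB, the form known for feedback on thyrotropin, lay between 28.4 and 109 CPM in PIT and between 3.45 and 46.3 CPM in HTHA (log2FC 2.57 ± 0.29, adjusted p = 8.7e-06), overlapping through the HTHA library of Rhesus 6. THRA lay between 72.2 and 151 CPM in PIT and between 219 and 330 CPM in HTHA (−1.45 ± 0.12, adjusted p = 8.32e-07). ESR1, the estrogen receptor, was higher in PIT (2.57 ± 0.49, adjusted p = 0.000572) with 2.64 to 41.5 CPM against 0.628 to 3.95 CPM, while the progesterone receptor PGR was higher in HTHA (−1.87 ± 0.65, adjusted p = 0.0225), a call lost without the animal block (adjusted p = 0.0566) and without Rhesus 2 (0.0573). MC4R, the melanocortin receptor of appetite circuits, had a pooled ratio of 94.8 in favour of HTHA (46 to 236), and LEPR, the leptin receptor, a log2FC of −1.37 ± 0.40. The glucocorticoid receptor NR3C1 was not called, at 17.6 to 83.5 CPM in PIT and 29.5 to 79.5 CPM in HTHA (log2FC 0.16 ± 0.16).

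Both tissues secrete peptides. Of 15 genes tested for processing and storing them, 5 were higher in PIT, 2 higher in HTHA and 8 not called (median log2FC 0.61). CHGB, a granin of dense-core granules, lay between 4954 and 24620 CPM in PIT and between 370 and 832 CPM in HTHA (log2FC 4.00 ± 0.28, adjusted p = 1.86e-07). CHGA, its relative, lay between 574 and 1397 CPM in PIT and between 112 and 242 CPM in HTHA (2.63 ± 0.23, adjusted p = 1.19e-06). RAB27A, which docks granules, and its partner SYTL4 were higher in PIT as well, at 4.35 ± 0.16 and 2.70 ± 0.35. The prohormone convertases differed: PCSK1, which cuts POMC to corticotropin, lay between 129 and 668 CPM in PIT and between 173 and 505 CPM in HTHA (−0.01 ± 0.29), whereas PCSK2, which cuts further to melanotropin and endorphin, was higher in HTHA (−1.87 ± 0.49, adjusted p = 0.00462), at 87.1 to 186 CPM against 6.09 to 137 CPM. Carboxypeptidase E (CPE), at 1257 to 2111 CPM in PIT and 1176 to 1971 CPM in HTHA, did not pass (0.23 ± 0.12).

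Genes of the endoplasmic reticulum, where secreted proteins fold, were higher in PIT in 13 of 16 cases, with 1 higher in HTHA and a median log2FC of 1.3. HSPA5, the main folding chaperone, lay between 1140 and 1659 CPM in PIT and between 360 and 807 CPM in HTHA (log2FC 1.29 ± 0.11, adjusted p = 1.15e-06). TRAM1 (1.91 ± 0.10) and SEC61B (1.84 ± 0.11), of the translocation channel, and XBP1 (1.49 ± 0.10), a regulator of secretory capacity, did not overlap between sub-regions. CREB3L2 had the largest fold (2.49 ± 0.42) and varied from 4.89 to 50.9 CPM between PIT libraries, while its relative CREB3L1 was the member higher in HTHA (−1.28 ± 0.34, adjusted p = 0.00519). Without Rhesus 6, 11 of the 16 were higher in PIT.

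Of 13 growth and paracrine factor genes tested, 2 were higher in PIT and 7 in HTHA (median log2FC −1.09). DLK1, a Notch-family ligand known from hormone cells, lay between 976 and 5665 CPM in PIT and between 18 and 63.8 CPM in HTHA (log2FC 6.23 ± 0.19, adjusted p = 6.78e-10), lowest in Rhesus 6 on both sides. IGFBP5, an IGF-binding protein, lay between 512 and 902 CPM in PIT and between 60.4 and 93.6 CPM in HTHA (3.15 ± 0.15, adjusted p = 9.79e-09). Neuropeptides of this list, NTS and CALCB, were higher in HTHA with pooled ratios of 155 (101 to 250) and 22.5 (15.2 to 34.7), and GAL had a log2FC of −3.12 ± 0.51. Besides DLK1, the Notch list had 1 more gene higher in PIT, 1 higher in HTHA, DLL3, and 7 of 10 not called (median −0.06). TGFBR3, the inhibin co-receptor betaglycan, lay between 83.6 and 199 CPM in PIT and between 10.6 and 15.2 CPM in HTHA (3.53 ± 0.16, adjusted p = 9.85e-09). In that list of 7 inhibin and activin genes, INHBB (1.14 ± 0.24) was also higher in PIT and BMPR1B (−2.31 ± 0.38) in HTHA (median −0.01).

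Hormone cells of the anterior lobe are epithelial, and all 16 epithelial genes tested were higher in PIT (median log2FC 4.81), and between animals their median SD of log2(CPM + 1) in PIT was 0.294, against 0.330 over all genes tested. CLDN7, a tight junction claudin, lay between 45.3 and 68 CPM in PIT and was at 0 in all HTHA libraries, at least 199-fold higher when HTHA is set to 3 counts per library. EPCAM, an epithelial adhesion molecule, lay between 217 and 295 CPM in PIT and between 0 and 1.13 CPM in HTHA (log2FC 9.27 ± 0.32, adjusted p = 1.26e-09). AP1M2, of epithelial sorting, had a pooled ratio of 868 (399 to 2365). ESRP1, an epithelial splicing regulator, lay between 85 and 136 CPM in PIT and between 0 and 1.14 CPM in HTHA (7.92 ± 0.35, adjusted p = 6.06e-09). Keratins KRT18 (2.40 ± 0.18) and KRT19 (1.93 ± 0.40) were among the smaller differences.

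Splicing regulators divided by tissue type. Of 15 tested, 10 were higher in HTHA and 3 in PIT (median log2FC −2.33), and the 3 were ESRP1, ESRP2 (5.32 ± 0.27) and PTBP1 (2.08 ± 0.10), which represses neuronal exons. PTBP1 lay between 227 and 312 CPM in PIT and between 46.7 and 87.6 CPM in HTHA. The neuronal regulators RBFOX1 (−5.33 ± 0.42), CELF5 (−4.70 ± 0.20), ELAVL3 (−4.01 ± 0.19) and SRRM4 (−3.57 ± 0.33) were all higher in HTHA without overlap. REST, a repressor of neuronal genes, did not pass (0.21 ± 0.26), at 1.42 to 9.58 CPM in PIT and 2.42 to 7.05 CPM in HTHA.

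Connective tissue genes were higher in PIT in 7 of 10 cases (median log2FC 2.28). COL1A1 lay between 25.9 and 71.4 CPM in PIT and between 0.236 and 1.14 CPM in HTHA (log2FC 5.97 ± 0.21, adjusted p = 1.58e-09), and COL1A2, the other chain of collagen I, had a log2FC of 3.86 ± 0.18. LUM (4.21 ± 0.32) and OGN (2.60 ± 0.15), proteoglycans of the collagen matrix, did not overlap either. PDGFRA, which also marks oligodendrocyte precursors, was the member higher in HTHA (−1.20 ± 0.10).

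Lists of vessel genes differed from one another. Of the general endothelial genes, 7 of 10 were not called, with 1 higher in PIT, 2 higher in HTHA and a median log2FC of −0.20: PECAM1 lay between 13.8 and 32.1 CPM in PIT and between 22.3 and 38.7 CPM in HTHA (−0.15 ± 0.13). Genes of the blood-brain barrier were higher in HTHA in 7 of 9 cases (median −1.84), among them SLCO1A2 (−4.78 ± 0.24), LEF1 (−3.61 ± 0.32) and SLC2A1, the glucose transporter, at 131 to 230 CPM in HTHA and 36 to 75.5 CPM in PIT (−1.84 ± 0.13, adjusted p = 2.02e-07). SLCO1C1 of this list was not called and reached 211 CPM in the PIT of Rhesus 8. Over all sub-regions, SLCO1A2 was highest in the corpus callosum (390 CPM) and LEF1 in the thalamus (57.7 CPM). Which cells carried these genes was not tested. PLVAP, which forms the diaphragms of fenestrated capillaries, lay between 13.1 and 43.3 CPM in PIT and between 3.31 and 8.79 CPM in HTHA (2.23 ± 0.14, adjusted p = 9.7e-08), and IGFBP3 in the same list of 4 had a log2FC of 3.89 ± 0.26, while NR2F2 was higher in HTHA (−1.12 ± 0.15) and the list's median was 0.69. The VEGF receptors went opposite ways, KDR higher in PIT (2.16 ± 0.21) and FLT1 higher in HTHA (−1.50 ± 0.15), without overlap in either. Of 8 pericyte and smooth muscle genes, 5 were higher in HTHA, led by RGS5 (−2.10 ± 0.24), and 3 were not called (median −1.10).

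Neuronal genes were higher in HTHA. All 12 pan-neuronal genes passed, with a median log2FC of −3.45, and a summed level of 665 to 876 CPM in PIT and of 5667 to 11685 CPM in HTHA. NEFL, a neurofilament, lay between 14.5 and 29.1 CPM in PIT and between 668 and 1044 CPM in HTHA (log2FC −5.14 ± 0.14, adjusted p = 2.62e-10). Among synaptic vesicle genes, SNAP25 lay between 257 and 409 CPM in PIT (−2.35 ± 0.18), and SYT1 between 16.4 and 55.2 CPM (−4.72 ± 0.27). Of 19 genes of glutamate and GABA transmission, 17 were higher in HTHA (median −3.30) and none in PIT. SLC32A1, the vesicular GABA transporter, lay between 89 and 148 CPM in HTHA and between 0.544 and 1.63 CPM in PIT (−6.49 ± 0.17, adjusted p = 2.67e-10). SLC17A6, the glutamate transporter of hypothalamic neurons, lay between 104 and 277 CPM in HTHA (−2.42 ± 0.27). The exceptions, GABRB1 (−0.22 ± 0.27) and SLC17A8 (1.00 ± 0.66), did not pass.

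Genes of cortical glutamatergic neurons were summed at 46 to 77.5 CPM in PIT and 320 to 4071 CPM in HTHA, where the highest value was that of Rhesus 6. Of 8 tested, 6 were higher in HTHA, NEUROD1 was higher in PIT and BDNF was not called (median log2FC −2.01). In the Rhesus 6 library CAMK2A stood at 1993 CPM and NRGN at 1280 CPM, against medians of 268 and 132 CPM. Without this animal 5 of 8 were higher in HTHA, SLC17A7 still among them with a log2FC of −1.84 (adjusted p = 0.000127, −2.91 with it), and the total of called genes was 5253.

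Genes of brain glia were low in PIT. Summed over 9 oligodendrocyte genes, PIT held 22.7 to 65.6 CPM and HTHA 3801 to 39894 CPM, with all 9 called and a median log2FC of −8.60. MBP, a myelin protein, lay between 7.14 and 18.4 CPM in PIT and between 1825 and 24835 CPM in HTHA (−8.81 ± 0.42, adjusted p = 1.3e-08). All 10 astrocyte genes were higher in HTHA (median −5.44). GFAP, the astrocyte intermediate filament, lay between 0.974 and 35.2 CPM in PIT and between 1230 and 3332 CPM in HTHA (−8.55 ± 0.59, adjusted p = 1.81e-07). The 5 oligodendrocyte precursor genes, led by OLIG2 and GPR17 (−5.41 ± 0.38), were all higher in HTHA (median −4.40). Among 8 microglia and macrophage genes, 5 were higher in HTHA and 3 not called (median −1.36). The brain-resident markers P2RY12 (−5.50 ± 0.33) and CX3CR1 (−4.56 ± 0.33) differed most, CSF1R less (−1.66 ± 0.18), and CD163 and MRC1, markers of macrophages near vessels, did not pass (−0.36 ± 0.31 and −0.79 ± 0.35).

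Genes shared by folliculostellate or stem cells of the gland and by brain glia went both ways, with 2 of 8 higher in PIT and 4 in HTHA (median log2FC −0.33). CDH1 (log2FC 3.44 ± 0.26) and GFRA3 (2.42 ± 0.34) were higher in PIT. SOX2, a stem cell factor in both tissues, lay between 23.6 and 90.9 CPM in PIT and between 125 and 231 CPM in HTHA (−1.95 ± 0.19, adjusted p = 2.79e-06), and GFRA2, PROM1 and SOX9 were also higher in HTHA. Choroid plexus and ependymal genes were higher in PIT in 4 of 8 cases (median 0.88), with KL (klotho) at 20.1 to 59.5 CPM against 4.65 to 14.8 CPM (2.14 ± 0.15) among them, while the cilia genes FOXJ1, PIFO, RSPH1 and DNAH9 were not called. Of the blood list only PTPRC could be tested, and it did not pass (−0.83 ± 0.22). Of 6 steroid and cholesterol genes, 3 were higher in HTHA, among them STAR (−4.24 ± 0.33) and SRD5A1 (−1.35 ± 0.18), and 3 were not called (median −1.13). Of 4 thyroid hormone genes, 1 was higher in PIT and 3 were not called (median 1.04).

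Pituicytes and tanycytes, the glia of the neural lobe and of the floor of the hypothalamus, share factors such as RAX, NKX2-1 and LHX2, and in PIT these genes varied widely between animals. Of 7 genes in their list, VIM was higher in PIT (log2FC 3.00 ± 0.19), SCN7A, NKX2-1 and COL25A1 were higher in HTHA, and LHX2, ADM and CRYM were not called (median −0.86). RAX was at 0 in all 8 HTHA libraries, and in PIT at 24.7 CPM in Rhesus 8, 7.85 in Rhesus 3, 4.92 in Rhesus 7, 1.22 in Rhesus 10, 0.294 in Rhesus 4 and 0 in Rhesus 2, 6 and 11. NKX2-1 lay at 23.1, 3.71, 2.81, 1.07 and 0.589 CPM in the PIT of Rhesus 8, 3, 7, 10 and 4, and at 0 in Rhesus 2, 6 and 11. LHX2 was at 45.1 and 23.1 CPM in Rhesus 8 and Rhesus 3, and at most 0.122 CPM in Rhesus 2, 6 and 11. The PIT of Rhesus 8 and Rhesus 3 thus held the most of these 3 factors, and that of Rhesus 2, 6 and 11 next to none.

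Further genes from several lists, chosen after their values were seen, are set beside them. CRYM, a thyroid hormone-binding protein, lay at 246 and 239 CPM in the PIT of Rhesus 8 and Rhesus 3, at 51.1 and 24.5 CPM in Rhesus 7 and Rhesus 10, and at most at 4.02 CPM in the other 4. SLCO1C1, a thyroid hormone transporter that is also in the list of the blood-brain barrier, followed the same order with 211, 92.9, 55.1 and 24.7 CPM and at most 5.30 CPM elsewhere. VIM was at 1167 and 1080 CPM in Rhesus 8 and Rhesus 3 and between 263 and 571 CPM in the rest. OXT in PIT was likewise highest in Rhesus 8 (25.7 CPM) and Rhesus 3 (6.90 CPM), and at most at 0.116 CPM in Rhesus 2, 6 and 11. SCN7A, of the pituicyte and tanycyte list, did not follow this order in PIT. It lay at 13.2 CPM in Rhesus 6, 12.3 CPM in Rhesus 3 and 2.56 CPM in Rhesus 8. The glial gene GFAP, of the astrocyte list, did not follow it either. GFAP was highest in the PIT of Rhesus 7 and Rhesus 10, at 35.2 and 18 CPM, with 4.46 CPM in Rhesus 3 and 2.64 CPM in Rhesus 8. Genes of the anterior lobe went both ways in the PIT of Rhesus 8 and Rhesus 3. TSHB was lowest there, at 82.2 and 69.6 CPM against 233 to 483 CPM elsewhere. AVPR1B was lowest there too, at 101 and 111 CPM against 148 to 280 CPM. POMC, at 8363 and 8140 CPM, stood inside the range of the other animals. GH1 (91264 CPM), CGA (5699 CPM) and GHRHR (1972 CPM) were highest of all in Rhesus 8, and LHB (1347 CPM) and LHX3 (399 CPM) in Rhesus 3. How far the lobe or piece sampled bears on these values was not tested. The calls of NKX2-1 (−1.85 ± 0.74, adjusted p = 0.0416) and COL25A1 (−1.77 ± 0.66, adjusted p = 0.0317) were lost without the animal block (adjusted p = 0.678 and 0.0695), and each was lost when any of several single animals was left out, Rhesus 2, 4, 6 or 11 for both and also Rhesus 7 or 10 for NKX2-1.

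**Figure D5:**
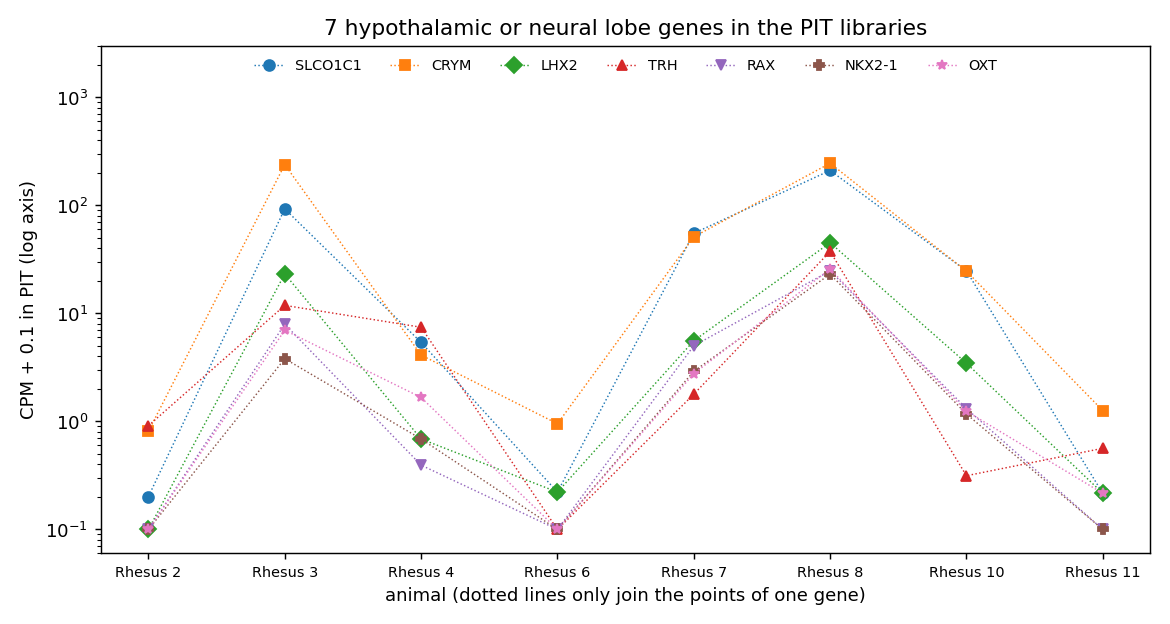
Points give the CPM + 0.1 (log axis) of 7 genes in the PIT library of each of the 8 animals, 1 marker shape per gene, with dotted lines only to join the points of a gene. In Rhesus 8 and Rhesus 3 each gene drawn has its highest and second highest value, and in Rhesus 2, 6 and 11 none exceeds 1.16 CPM. The genes come from several lists. SCN7A, a pituicyte and tanycyte list member not drawn, was instead highest in Rhesus 6, at 13.2 CPM against 2.56 CPM in Rhesus 8. GFAP, an astrocyte gene also not drawn, was highest in Rhesus 7, at 35.2 CPM against 2.64 CPM in Rhesus 8.

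Another pair of PIT libraries, those of the mid-aged females Rhesus 6 and Rhesus 11, stood apart in genes of the endocrine cells themselves, chosen here after their values were seen. Besides PRL, TRHR and CHGB were highest in them, CHGB at 24620 and 16400 CPM against 4954 to 11433 CPM elsewhere. ESR1 was also highest in these libraries, at 41.5 and 33.9 CPM, with 2.64 to 26.1 CPM in the others. GHRHR was lowest in them, at 285 and 500 CPM against 616 to 1972 CPM, and so was DLK1, at 976 and 2268 CPM against 2680 to 5665 CPM. Age stage and sex cannot be told apart in this pair from other traits of the same animals.

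The genes with the largest log2FC, taken with a mean of at least 5 CPM and the same direction in every animal, extended these groups. Toward PIT they included XDH, xanthine dehydrogenase, at 7.45 to 41.5 CPM in PIT and 0 in all HTHA libraries (at least 76.5-fold), the phospholipase PLA2G4F (pooled ratio 850, 507 to 1555) and ASB4 (1039, 356 to 5038), beside PRL, GH1, GHRHR, CGA, CLDN7, LHX3, POMC, AP1M2 and NEUROD4. Toward HTHA they were PMCH, HCRT, SST, DLX1, the oligodendrocyte genes OPALIN and OMG, and NGB, PNMA5, CALB2, ZIC4, SRARP and PARPBP. NGB, neuroglobin, lay between 25.4 and 71.4 CPM in HTHA and had 0.0703 CPM in 1 PIT library and 0 in the others. CALB2 (calretinin) had a pooled ratio of 895 (306 to 4338) and SRARP was at least 26.8-fold lower in PIT. PARPBP overlaps PMCH in the RefSeq annotation and ran beside it, at 2108 and 2.11 CPM in Rhesus 4 and Rhesus 11, so the counts of this pair cannot be told apart. By mean level, the leading genes of PIT were PRL, GH1, CHGB, POMC and EEF1A1 and those of HTHA included MBP and 3 genes without a symbol.

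Set against the rest of the brain, most genes higher in PIT stood above every other sub-region as well. For these values all samples of the table were scaled together. Of the 2181 genes higher in PIT than in HTHA, 1592 (73.0%) had a higher mean in PIT than in each of the other 49 sub-regions, and 605 (27.7%) were more than 2-fold above each. Of the 3073 genes higher in HTHA, 101 (3.29%) were above each of the 49 and 20 (0.651%) more than 2-fold so. Both sets were called from the same PIT and HTHA libraries that are ranked here. The share over all genes tested is not given, so these percentages describe the called genes only. Those 20 included PMCH, HCRT, OXT, OTP, SIM1, FEZF1, NKX2-4, PGR, HDC, the histamine-forming enzyme, and MAGEL2, a gene of the Prader-Willi region. In HTHA 1425 of the 3073 (46.4%) lay below the median of the other sub-regions, against 40 of 2181 (1.83%) in PIT. The 40 included MEIS2 and NEUROD1, whose highest means were in the olfactory bulb and in the cerebellar vermis. CRH illustrates the HTHA side: it was at rank 24 of 51 in HTHA, highest in the medulla oblongata, and lowest of all in PIT. TRH and SST had their highest mean in HTHA, and TRH was followed closely by the thalamus (93.97 against 83.7 CPM). Some PIT genes were shared with the olfactory bulb, where VIM and OGN were highest and COL1A1 almost equal to PIT (38 against 39.6 CPM).

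Although so many genes differed, HTHA was nearer to PIT than most of the brain was. The distance, 1 minus Pearson's r of log2(CPM + 1) across genes within an animal, was 0.240 ± 0.0131 (SD, n = 8) between PIT and HTHA, and the median distance of PIT to the other 49 sub-regions was 0.275 ± 0.00912. HTHA was nearer in 8 of 8 animals, with a difference of −0.0124 in Rhesus 6 and −0.0512 in Rhesus 2 as the extremes (exact two-sided sign-flip permutation test, p = 0.00781, the smallest that 8 animals allow). HTHA was the nearest sub-region of all in Rhesus 2, 4 and 11, and the olfactory bulb was in the other 5 animals. In Rhesus 6, whose HTHA library held cortical genes, HTHA was at rank 7. It was at rank 5 in Rhesus 8, 3 in Rhesus 3, and 2 in Rhesus 7 and Rhesus 10. Most of the 49 sub-regions are areas of cerebral cortex, so the median sets HTHA mainly against cortex.

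Whether the difference between PIT and HTHA itself changed with age stage or sex was tested for every gene. No gene passed (0 of 14958, 0%, for age stage, and 0 of 14958, 0%, for sex, edgeR with Benjamini-Hochberg adjustment), while 834 and 1322 genes had an unadjusted p under 0.05, and DESeq2 called 57 and 23 genes. The lowest adjusted p for age stage was 0.0952, shared by 3 genes. One was NTNG1, a netrin, at 1.49 ± 0.693 CPM (SD, n = 4) in the PIT of young animals and 10.4 ± 5.89 CPM in that of mid-aged animals, with 74.2 ± 20.4 and 44.6 ± 6.54 CPM in HTHA, a difference of 3.36 ± 0.42 (SE) between the log2 folds. RBP4, the retinol-binding protein, went the other way, at 591 ± 372 CPM in young PIT and 155 ± 52.8 CPM in that of mid-aged animals (−1.88 ± 0.27, adjusted p = 0.128). The age stages did not overlap for either gene in PIT, which held at most 2.43 CPM of NTNG1 in the young and at least 4.03 CPM in mid-aged animals, and at least 291 CPM of RBP4 in the former and at most 219 CPM in the latter. Both genes were picked for their low p in this interaction, so the gap adds no separate evidence. The share of all genes without overlap between age stages is not given. For GH1, with 0 counts in 6 HTHA libraries, the interaction with age stage had an adjusted p of 0.996. For sex the lowest adjusted p was 0.55, which was that of SYTL4, at 208 ± 33.6 CPM in female and 123 ± 44.2 CPM in male PIT and 16.2 ± 3.25 and 35.8 ± 5.10 CPM in HTHA (female minus male 1.96 ± 0.29). LHB (−2.98 ± 0.73, unadjusted p = 0.00225 in edgeR) and FSHB (4.06 ± 1.49, unadjusted p = 0.0215) pointed opposite ways and neither passed the adjustment (0.55 for both).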

How the data were processed

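RNA-seq libraries of 51 sub-regions (408 samples) shared 1 table of deposited whole-number counts per gene. The authors screened reads with FastQC 0.11.4, trimmed poor samples with Trim Galore 0.4.4, mapped with HISAT2 2.0.5 to Mmul 8.0.1 and made the counts with HTSeq 0.6.1 on Ensembl 91 genes, per the methods and submitters' processing notes. Strand and overlap options are not given in the sources used here, so genes that overlap, run antisense or have a close copy may share or lose counts. Of 30807 genes, 17572 took their symbol from the reference table and 505 from identifier and name pairs of the study's supplement, POMC and TSHB among them. The identifier of GH1 is GHV in the reference table and GH1 in the supplement.

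The 16 PIT and HTHA samples were fitted with edgeR 4.0.16 (R 4.3.3): filterByExpr, TMM scaling, a quasi-likelihood F test with animal and sub-region, and log2FC as PIT over HTHA. SE is the log2FC divided by the square root of F. A further fit added the interactions of sub-region with age stage and sex. CPM (counts scaled to the same library size) used TMM-scaled library sizes. A gene at 0 throughout one sub-region was set to 3 counts per library there, and with 30 or fewer counts in all a pooled ratio with a 95% exact Poisson interval is given. Such intervals cover counting error only. List medians did not change with genes at 0 set to that bound. Samples were paired because the labels place each pair in the same animal. Correlations of the same-animal deviations from group means ran from −0.0487 (Rhesus 4) to 0.547.

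Of the 375 genes in 33 lists, 322 had an identifier. The others, among them AVP, AGRP and TBX19, are not analysed here. The lists and the comparison were chosen with earlier results of these data known. Named genes were all members of the hormone, lineage, receptor, releasing factor and neurohypophysial lists, up to 4 called members per direction of other lists, the 12 largest called log2FC per direction and the 5 highest means per sub-region. Members named beyond this rule were chosen after their values were seen. Alternatives were DESeq2 1.42.0, other scalings, filters and thresholds, no animal block, and each animal left out. On simulated counts with 200 genes changed 4-fold, the sub-region test recovered 195, the age stage test 143 and the sex test 145. It called 4, 6 and 7 unchanged genes, in the same order. These counts had no animal effect, no outlying library and no other sub-region difference. Only genes above a minimum expected count were changed. The recoveries therefore check the fits and do not give the power of the tests on the real libraries. The midbrain and chromatin accessibility samples are not analysed here, and a few genes that the naming rule covers are not reported here.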

Additional observations from a re-analysis of the deposited data

Results flagged for a closer look

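In 9 of 67 gene and sub-region pairs 1 library lay far from the other 7, by the gap to its nearest neighbour relative to the range. Chance alone marks about 1 in 20 where values are normally distributed. Sets that are mostly 0, such as GH1 and PAX7 in HTHA, are not, so 9 of 67 cannot be read against that rate. In HTHA, GH1 was at 8.92 CPM in Rhesus 4 with a median of 0. Of the lineage factors, NEUROD1 was at 17.1 CPM in the HTHA of Rhesus 6 (median 1.65) and PAX7 at 0.473 CPM in the HTHA of Rhesus 7 (median 0). SSTR5 was at 2.25 CPM in the HTHA of Rhesus 6 as well (median 0.239), so that 2 of the 9 came from the HTHA library that held cortical genes. In PIT, Rhesus 6 had 8.52 CPM of SSTR1 (median 0.688) and 3.17 CPM of SSTR2 (median 9.04). SSTR2 was also low in the HTHA of Rhesus 3, at 7.43 CPM (median 17.7). GHRH and KISS1, neighbours in the arcuate nucleus, were both highest in the HTHA of Rhesus 8, at 5.43 CPM (median 0.289) and 2.76 CPM (median 0.393). None of 345 genes moved one way in every animal of one age stage or sex and the opposite way in every animal of the other.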

How the results depend on the processing

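The number of called genes was 5272 with DESeq2, 5243 and 5244 with other scalings, 6975 of 19579 under a looser filter and 5233 to 5375 with each animal left out. At a log2FC threshold of 2 it fell to 2254 (690 higher in PIT, 1564 in HTHA). Without the replicate block, that is without pairing by animal, it was 5213, with 5062 genes shared with the blocked fit. Calls for age stage were 57 with DESeq2, 4 under the looser filter, 1 without the block and 0 to 10 with each animal left out, 10 being without Rhesus 3. Calls for sex were 23 with DESeq2 and 0 to 1 with each animal left out, 1 being without Rhesus 7. No named gene reversed. The causes of these shifts were not tested. The distance of PIT to HTHA stayed below its median distance to the other sub-regions with Spearman's rho, 1000 genes, a pseudocount of 0.1 and without Rhesus 6. Planned correlations of OXT with AVP and of AGRP with NPY were not run, because AVP and AGRP had no identifier. With 8 libraries per side at these depths, genes under a few counts per library (GHRH, KISS1, HESX1, PAX7) could not be tested.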

Other observations

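Among the most variable genes of HTHA, NGFR, the neurotrophin receptor known from basal forebrain cholinergic neurons, was at 261 CPM in Rhesus 11 and 11.4 CPM in Rhesus 10, and at most at 2.09 CPM in the other 6 libraries. LHX8, a factor of the same neurons, was also highest in these libraries, at 38.9 and 4.27 CPM, with at most 2.60 CPM elsewhere. PMCH and HCRT were lowest in the HTHA of Rhesus 11, as described above. VIP was at 32.9 CPM in the HTHA of Rhesus 6 and at most at 5.53 CPM in the others. These genes were picked after their values were seen, and the part of the piece sampled in them was not tested.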
